A study of Mus musculus with 6 samples.

Results

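The genes described here encode the thin filament, the Z-disc and the M-band of the sarcomere, the contractile unit of striated muscle, together with titin, myosin-binding protein C and factors that assemble or turn over these structures. They were taken from a list of 41 genes by the symbol of each probe in the platform annotation. Of the 41, 35 had at least 1 probe and 6 (Tnnt2, Lmod3, Myom3, Flnc, Smpx and Trim55) had none named here, so nothing is reported on them. The 35 genes had 55 probes among 25696 on the array, and 40 of these probes, for 29 genes, were detected well enough to be tested, among 10407 tested in all.

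RNA of whole hearts from 6 female C57BL/6J mice was hybridised to Illumina bead arrays, 1 array a mouse. The 3 knockout mice carried floxed alleles of Nelf-b together with CreER, a Cre recombinase that tamoxifen switches on, and the 3 control mice carried the floxed alleles (Nelf-b f/f) without CreER. Mice of both genotypes ate regular chow, received tamoxifen at 8 weeks of age, and were sampled at 20 weeks after a fast of 5 hours. The controls lacked the recombinase, so its own effect and that of the deleted gene cannot be told apart, and the sources used here do not name the promoter that drives CreER. The table of signals that were not normalized names the same arrays with the group names exchanged. Groups here follow the sample records, and every sign below turns if the other names are used. Nelfb, which encodes a subunit of the negative elongation factor, was lower in the knockout hearts by these records: its brighter probe averaged 5.44 ± 0.03 in knockout and 7.06 ± 0.04 in control hearts (log2 of the normalised signal ± SD over 3 arrays). The difference was -1.61 on the log2 scale, with a limma adjusted p of 0.00024. The other Nelfb probe had a difference of -0.94 (limma adjusted p = 0.00406). With the exchanged names, both probes of the targeted gene would be higher in knockout hearts.

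Before normalization, arrays had a mean signal of 208.0 to 259.9 for knockout and 169.8 to 310.3 for control hearts. Arrays of the same genotype correlated at 0.982 to 0.990 and arrays of different genotypes at 0.972 to 0.981 (Pearson r across probes, which are not independent replicates). Control array 1 stood apart from the other 5 on the second principal component, at -22.4, where they ran from -1.76 to 9.86, and results that rest on it are given with and without it.

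Thin filaments are built of actin, tropomyosin and the troponin complex, in which troponin C binds calcium, troponin I inhibits contraction and troponin T anchors the complex to tropomyosin. Their ends are capped, at the Z-disc by CapZ and in the middle of the sarcomere by tropomodulins. Leiomodins act at the ends in the middle of the sarcomere too, where they lengthen the filaments. The Z-disc, built around alpha-actinin, ties together thin filaments of neighbouring sarcomeres, and the M-band, built around myomesins, ties together thick filaments. Many of these proteins have separate cardiac and skeletal muscle isoforms, and the heart mainly uses the cardiac set.

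The skeletal muscle tropomodulin gene Tmod4 was 1.97-fold to 2.01-fold lower in knockout hearts on its 3 probes. The Z-disc gene Ldb3 was 1.88-fold higher on its detected probe, and the slow skeletal troponin T gene Tnnt1 was 1.73-fold higher. The remaining 35 tested probes were not called. In all, 2 probes were higher and 3 lower at an adjusted p below 0.05 (limma on log2 signals, Benjamini-Hochberg over all probes tested), or 12.5% of the 40, where 3.8% of all probes were called (1.92% higher and 1.87% lower). At an unadjusted p below 0.05, 11 of the 40 passed (27.5%), as did 19.5% of all probes. The 3 probes of Tmod4 share 1 gene. With 1 probe per gene, 3 of 29 genes were called (10.3%), where 4.25% of all genes were. The median log2 difference of the 40 probes was 0.05, and that of all probes tested was 0.01. An absolute log2 difference below 0.5 was seen for 82.5% of the sarcomere probes and for 90.9% of all probes. In whole heart tissue, fewer cells of a type and less RNA per cell cannot be told apart.

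**Figure D1:**
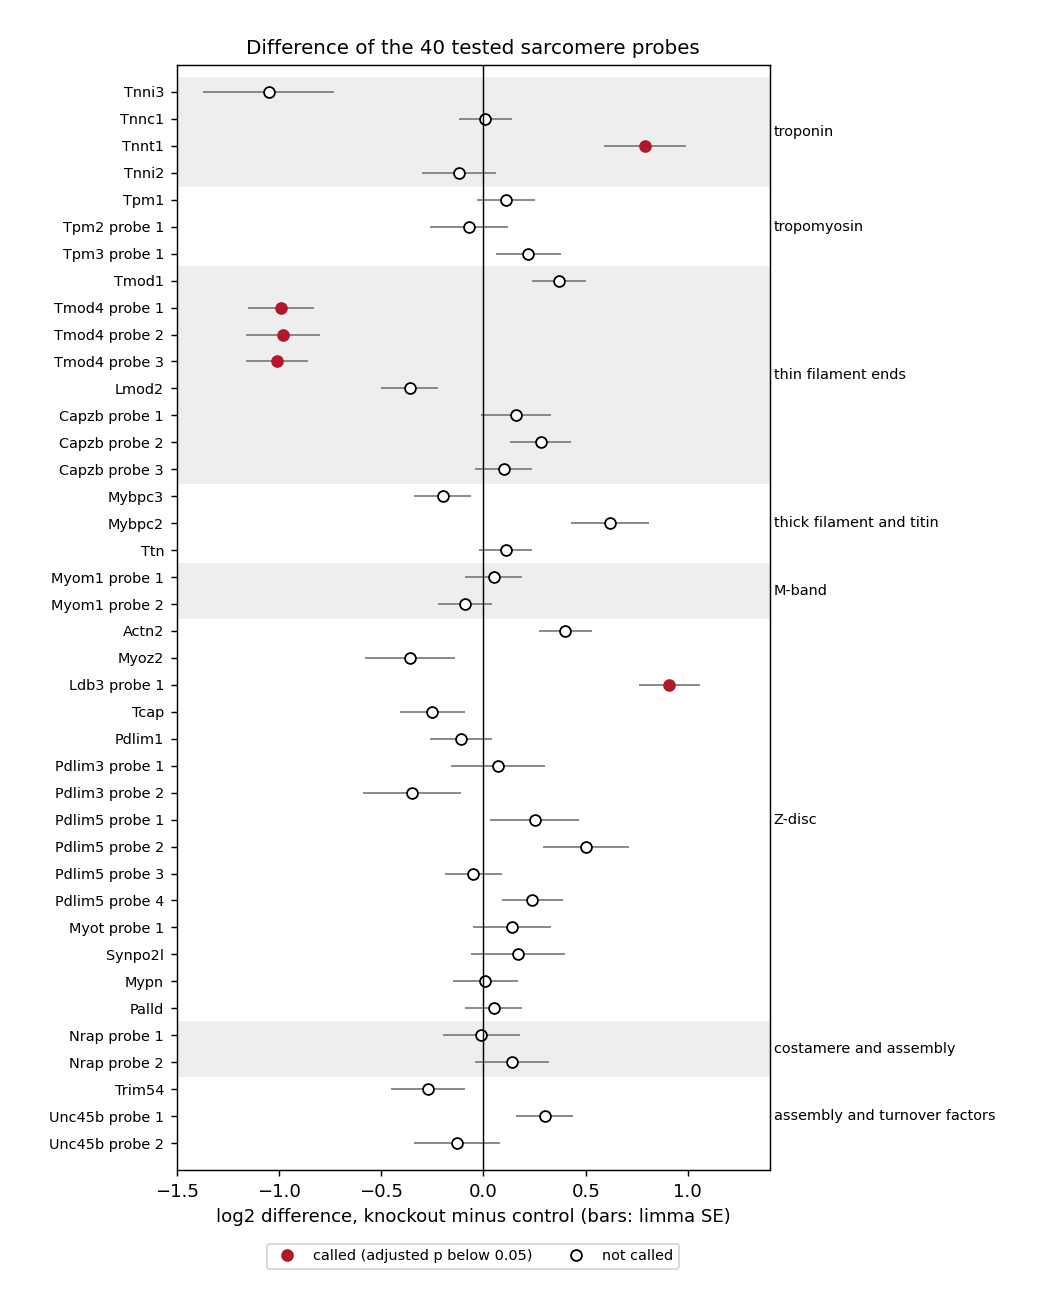
Log2 difference of knockout minus control for the 40 tested sarcomere probes, grouped by compartment, with limma standard errors as bars. Filled red points are the 5 called probes (Tnnt1, the 3 probes of Tmod4 and Ldb3 probe 1), and most of the other points lie within 0.5 of zero.

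At the ends of the thin filament, Tmod4 fell and its cardiac relative Tmod1 did not pass the test. Tmod4 probe 1 (ILMN_2519313; probes are numbered by mean signal) read 8.04, 7.83 and 7.90 in knockout hearts, against 9.21, 8.79 and 8.73 in control hearts (normalised signal, log2). Probe 2 (ILMN_2488846) read 7.49, 7.59 and 7.96 in knockout hearts, against 8.94, 8.59 and 8.44 in control hearts. Probe 3 (ILMN_2438793) read 5.91, 6.02 and 5.68 in knockout hearts, against 6.87, 7.05 and 6.71 in control hearts. On each probe the highest knockout array lay below the lowest control array, and the 3 probes gave nearly the same fold although their signals differ widely. The log2 differences were -0.99 ± 0.16, -0.98 ± 0.18 and -1.01 ± 0.15 SE, with limma adjusted p of 0.00627, 0.0125 and 0.00497. The near-equal folds depended on the background correction and its offset. Without background correction the log2 differences of probes 1, 2 and 3 were -0.81, -0.77 and -0.53, and all were still called. With an offset of 50 they were -0.90, -0.87 and -0.71, also called.

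Genes that lie next to Tmod4 were not called. Within 50000 bases of it on chromosome 3, RefSeq lists 6 other protein-coding genes, of which 4 (Pip5k1a, Vps72, Scnm1 and Lysmd1) had 7 tested probes. Their log2 differences ran from -0.35 to 0.21, with no adjusted p below 0.306.

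Tmod1, the tropomodulin of cardiac thin filaments, read 9.70, 9.76 and 9.61 in knockout hearts, against 9.33, 9.33 and 9.31 in control hearts. All 3 knockout arrays lay above the controls, and the log2 difference of 0.37 ± 0.13 SE was not called (limma adjusted p = 0.154). It passed the threshold with no background correction and with an offset of 50, where the lowest adjusted p was 0.0203. Lmod2, the cardiac leiomodin that lengthens thin filaments, was close to background and was detected on 1 knockout and 3 control arrays. It read 4.66, 4.57 and 4.41 in knockout hearts, against 5.03, 4.76 and 4.93 in control hearts, a log2 difference of -0.36 ± 0.14 SE (limma adjusted p = 0.197). Capzb, the beta subunit of CapZ, had 3 tested probes with log2 differences of 0.10 to 0.28 and none called. Probe 1 read 9.93, 10.23 and 10.34 in knockout hearts, against 10.29, 9.92 and 9.82 in control hearts. The groups overlapped on that probe.

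**Figure D2:**
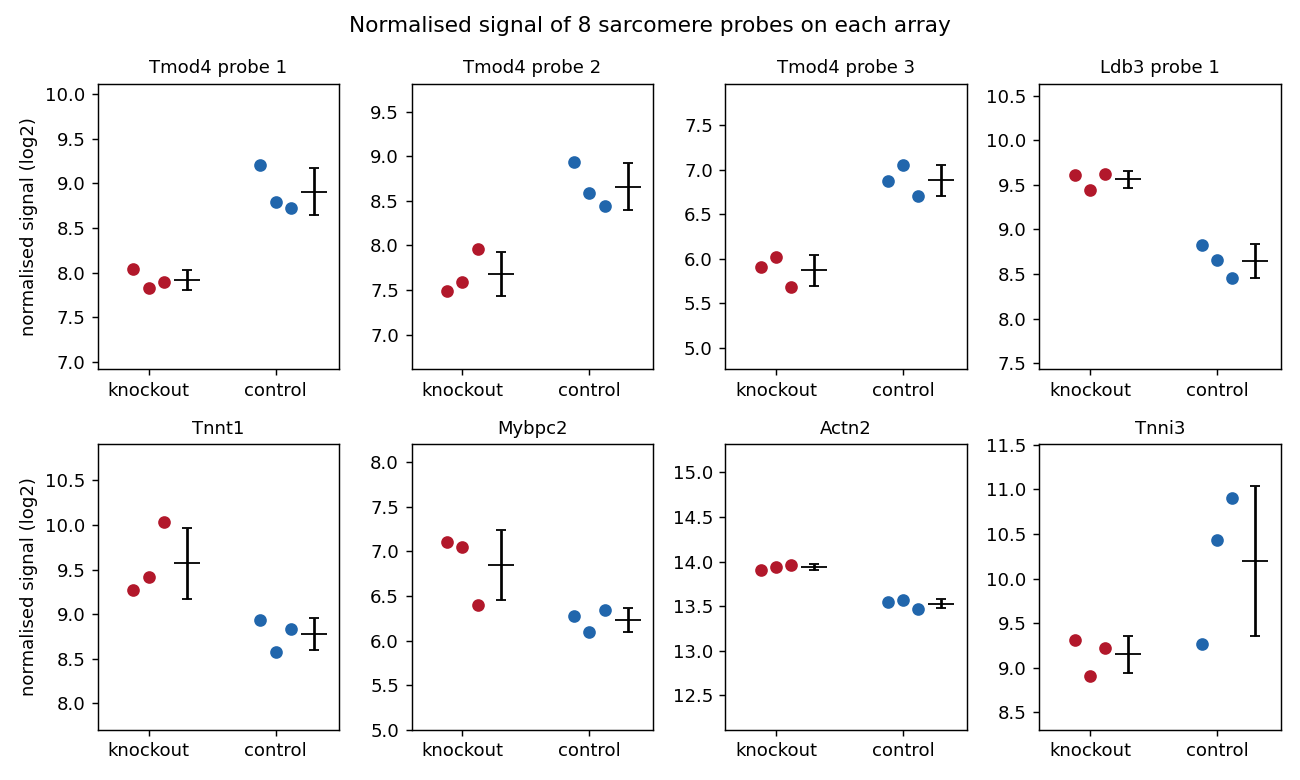
Normalised signal (log2) of 8 sarcomere probes on each array, with knockout arrays in red on the left of each panel and control arrays in blue on the right. Black bars give the mean and SD of 3 arrays, and each vertical axis spans the same log2 range. The groups are apart for all panels except Tnni3, where control array 1 (9.27) lies among the knockout arrays.

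Among the troponins, the gene of the slow skeletal troponin T rose and those of the cardiac complex that had probes were not called. Tnnt1 (ILMN_2460136) read 9.27, 9.42 and 10.03 in knockout hearts, against 8.93, 8.58 and 8.83 in control hearts. The groups did not overlap, knockout array 3 was the highest, and the log2 difference was 0.79 ± 0.20 SE. Its limma adjusted p of 0.0476 was close to the threshold, and the call was lost without control replicate 1, 2 or 3 (adjusted p = 0.0575, 0.168 and 0.134) and without knockout replicate 2 or 3 (0.0962 and 0.129). The log2 difference was lowest, at 0.57, without knockout replicate 3. The other skeletal troponin genes gave little signal: Tnni1, the slow skeletal troponin I that the fetal heart also uses, was not detected on any array, and Tnni2, the fast skeletal troponin I, was detected on 2 knockout and 2 control arrays with a log2 difference of -0.12.

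The gene of cardiac troponin I, Tnni3, had the lowest difference of the uncalled probes and depended on control array 1. It read 9.31, 8.91 and 9.22 in knockout hearts, against 9.27, 10.43 and 10.90 in control hearts. Control array 1 was at the level of the knockout arrays, while the other controls lay more than 1 unit above them. The log2 difference was -1.05 ± 0.32 SE with a limma adjusted p of 0.0933, and without control replicate 1 it was -1.52 with an adjusted p of 0.00648. It was also called in the authors' value table. Tnnc1, the calcium-binding troponin C of heart and slow muscle, read 14.59, 14.62 and 14.59 in knockout hearts, against 14.56, 14.59 and 14.62 in control hearts. Its log2 difference was 0.01 with a 95% interval of -0.28 to 0.30, and this probe was near saturation on every array, as described below.

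Tropomyosin genes were not called. Tpm1, the tropomyosin gene of the working heart, read 8.56, 8.35 and 8.37 in knockout hearts, against 8.22, 8.43 and 8.29 in control hearts, a log2 difference of 0.11 ± 0.14 SE. Of 3 probes of Tpm2, the beta-tropomyosin gene, 1 was tested (-0.07), as was 1 of 4 probes of Tpm3 (0.22). The other 5 tropomyosin probes were each detected on no array or on 1.

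Genes of the thick filament and titin were not called, although on all 3 tested probes the knockout and control arrays did not overlap. Such separation was seen for 12 of the 40 sarcomere probes (30%) and for 24.3% of all probes. Mybpc2, the fast skeletal myosin-binding protein C, read 7.11, 7.05 and 6.40 in knockout hearts, against 6.27, 6.09 and 6.34 in control hearts. Knockout array 3 lay just above the highest control, and the log2 difference was 0.62 ± 0.19 SE (limma adjusted p = 0.0987). Without knockout replicate 3 it was 0.85 with an adjusted p of 0.0234. Mybpc3, the cardiac form, read 12.95, 13.06 and 12.81 in knockout hearts, against 13.22, 13.10 and 13.10 in control hearts, a log2 difference of -0.20 ± 0.14 SE. Titin (Ttn), the molecular spring that reaches from the Z-disc to the M-band, read 13.08, 13.16 and 13.13 in knockout hearts, against 12.98, 13.07 and 13.00 in control hearts. Its difference of 0.11 ± 0.13 SE was small beside the error. The groups nearly touched on each of the 3 probes, at the closest with 13.08 against 13.07 for Ttn.

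At the M-band, only myomesin 1 was measured. Its brighter probe read 11.75, 11.82 and 11.73 in knockout hearts, against 11.55, 11.78 and 11.82 in control hearts. The log2 differences of the 2 Myom1 probes were 0.05 and -0.09, with limma adjusted p of 0.869 and 0.763. Myom2 was detected on knockout array 2 only, and the obscurin-like gene Obsl1 on no array.

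In the Z-disc, 1 of 15 tested probes was called (6.67%, where 3.8% of all probes were), that of Ldb3. Its PDZ and LIM domain protein (also called ZASP or cypher) binds alpha-actinin. Ldb3 probe 1 (ILMN_3136283) read 9.61, 9.44 and 9.62 in knockout hearts, against 8.83, 8.66 and 8.45 in control hearts. The groups were apart by more than 0.5, and the log2 difference was 0.91 ± 0.15 SE (limma adjusted p = 0.00665). Probe 2 is annotated to another transcript of the gene and gave no such reading: at 4.45, 4.47 and 4.91 in knockout hearts, against 5.21, 4.38 and 4.50 in control hearts, it was detected on 1 array of each group and was not tested.

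Actn2, the alpha-actinin that crosslinks thin filaments in the Z-disc, was higher on every knockout array without a call. It read 13.91, 13.94 and 13.96 in knockout hearts, against 13.55, 13.57 and 13.47 in control hearts. The spread within groups was small, and the log2 difference of 0.40 ± 0.13 SE had a limma adjusted p of 0.119. It was called with no background correction, with an offset of 50, in the authors' value table and with a trended and robust variance prior, where the adjusted p was as low as 0.00515. The probe was near saturation on 3 knockout arrays and 1 control array.

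The other Z-disc probes had log2 differences between -0.36 and 0.50. Myoz2, the calsarcin of heart and slow muscle, was the lowest (-0.36 ± 0.22 SE) and Pdlim5 probe 2 the highest (0.50 ± 0.21 SE). Pdlim5, a PDZ and LIM domain gene like Ldb3, had 4 tested probes, annotated to 3 transcripts. Probe 2 read 7.97, 8.50 and 8.91 in knockout hearts, against 8.10, 7.84 and 7.95 in control hearts, so knockout array 1 lay among the controls and the limma adjusted p was 0.218. Probes 1, 3 and 4 had differences of 0.25, -0.05 and 0.24. Tcap, the titin cap protein telethonin, read 13.52, 13.04 and 13.30 in knockout hearts, against 13.63, 13.39 and 13.60 in control hearts. The groups overlapped, and its log2 difference was -0.25 ± 0.16 SE. Those of the actin-associated genes Synpo2l and Myot were 0.17 and 0.14, and that of the PDZ and LIM domain gene Pdlim1 was -0.11. The actin-binding scaffold genes Palld (0.05) and Mypn (0.01) showed nearly equal means. Myoz1, the skeletal calsarcin, was not detected on any array, and Nebl, the cardiac nebulin relative, on knockout array 1 only.

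Assembly and turnover factors were not called. Unc45b, a chaperone that folds myosin, had 2 tested probes that pointed different ways, at 0.30 and -0.13. The brighter of them read 10.58, 10.45 and 10.65 in knockout hearts, against 10.30, 10.19 and 10.28 in control hearts, with groups that did not overlap and a limma adjusted p of 0.255. Trim54, a ubiquitin ligase of the MuRF family, had -0.27 ± 0.18 SE. Smyd1, a methyltransferase needed for myofibril assembly, was detected on 2 knockout arrays and was not tested. Nrap, a scaffold of growing myofibrils, read 11.49, 11.32 and 10.79 in knockout hearts, against 11.03, 11.21 and 11.38 in control hearts on its brighter probe. The log2 differences of its 2 tested probes were -0.01 and 0.14.

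Of 7 sarcomere genes with several tested probes, Tmod4 and Capzb had differences of 1 sign on all probes. Myom1, Nrap, Pdlim3, Pdlim5 and Unc45b had probes on both sides of zero, none of them called. Probe 3 of Nrap and probe 3 of Unc45b were detected on no array, although other probes of these genes were bright. A probe that is not detected therefore does not show that its gene is silent. This limits Tnni1, Myom2, Obsl1, Myoz1, Nebl and Smyd1, each read by a single probe.

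Arrays that stood apart touched some genes more than others. Control array 1 lay at least 0.5 below both other controls for 4 probes: those of Tnni3, Myoz2 and Trim54, and Unc45b probe 2. That is 10% of the tested sarcomere probes, where control array 1 stood off in this way, above or below, for 6.25% of all probes, the largest share of the 6 arrays. Without it, Myoz2 had a log2 difference of -0.61 (limma adjusted p = 0.0739) and Trim54 -0.46 (0.108). Unc45b probe 2 had -0.40 (0.147) without control array 1, against -0.13 with it. Both probes of Pdlim3, a PDZ and LIM domain gene, were highest on knockout array 1, at 8.23 against 7.34 and 7.44 on the other knockout arrays for probe 1, and at 6.87 against 5.94 and 5.84 for probe 2. The atrial markers did not move one way on that array. Of the 7 listed, Myl4 (10.23, with 5.71 to 5.95 on the other 5 arrays), Sln (6.89, with 4.21 to 4.41), Myl7 and Dkk3 were highest on knockout array 1. Nppa was lowest there, at 11.71 with 12.24 to 14.24 on the others, and Bmp10 and Fgf12 were not detected on any array. The summed signal of the tested atrial probes ran from 4813, on knockout array 1, to 19548 in knockout hearts, and from 4957 to 7311 in control hearts. Most of this sum was Nppa, and Sln and Myl7 were not tested and are not in it. The sum therefore does not show the high Myl4, Sln and Myl7 readings of knockout array 1. The part of atrial tissue in the Pdlim3 values was not tested. Without knockout replicate 1, the differences were -0.21 for Pdlim3 probe 1 and -0.67 for probe 2, and neither was called.

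**Figure D3:**
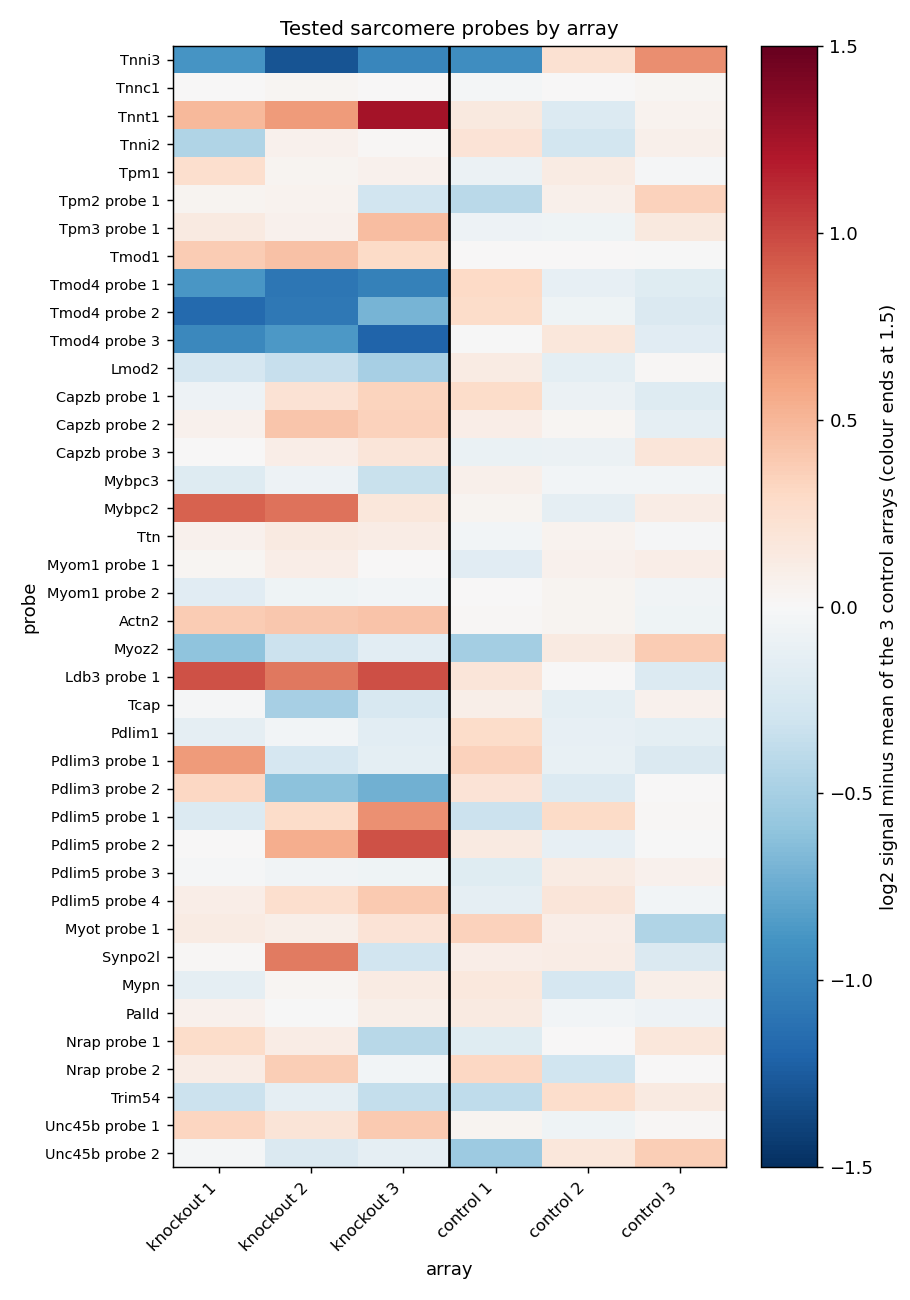
Signal of the 40 tested sarcomere probes on each array, as log2 signal minus the mean of the 3 control arrays, with knockout arrays on the left of the black line. The 3 Tmod4 probes are blue and Ldb3 probe 1 is red on all knockout arrays, while Tnni3 and Myoz2 are blue on control array 1 as well.

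Near saturation, a difference in signal can understate a difference in RNA. A probe was marked when its signal before normalization reached 50% of the highest signal on the same array, on at least 1 array. This marked Tnnc1, Actn2 and Tcap. Tnnc1 reached 86.3%, 98.5% and 90.2% of the highest signal on the knockout arrays, and 83.5%, 98.4% and 92.4% on the control arrays. Actn2 was at 53.6%, 64.6% and 53.4% on the knockout arrays, and at 40.0%, 57.5% and 39.7% on the control arrays. Tcap passed the mark on 1 control array, at 50.6%. Just below the mark, Mybpc3 reached 40.1% and Ttn 40.0% on control array 2. Among the 50 tested probes of all genes that passed the mark, 1 was called and the median SD within groups was 0.11. This SD was 0.21 for probes below 1% of the highest signal, 0.15 from 1% to 10% and 0.13 from 10% to 50%. It thus fell with brightness below the mark too. The called probes stayed far below the mark, at no more than 2.5% for Tmod4, 3.2% for Ldb3 and 3.4% for Tnnt1.

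**Figure D4:**
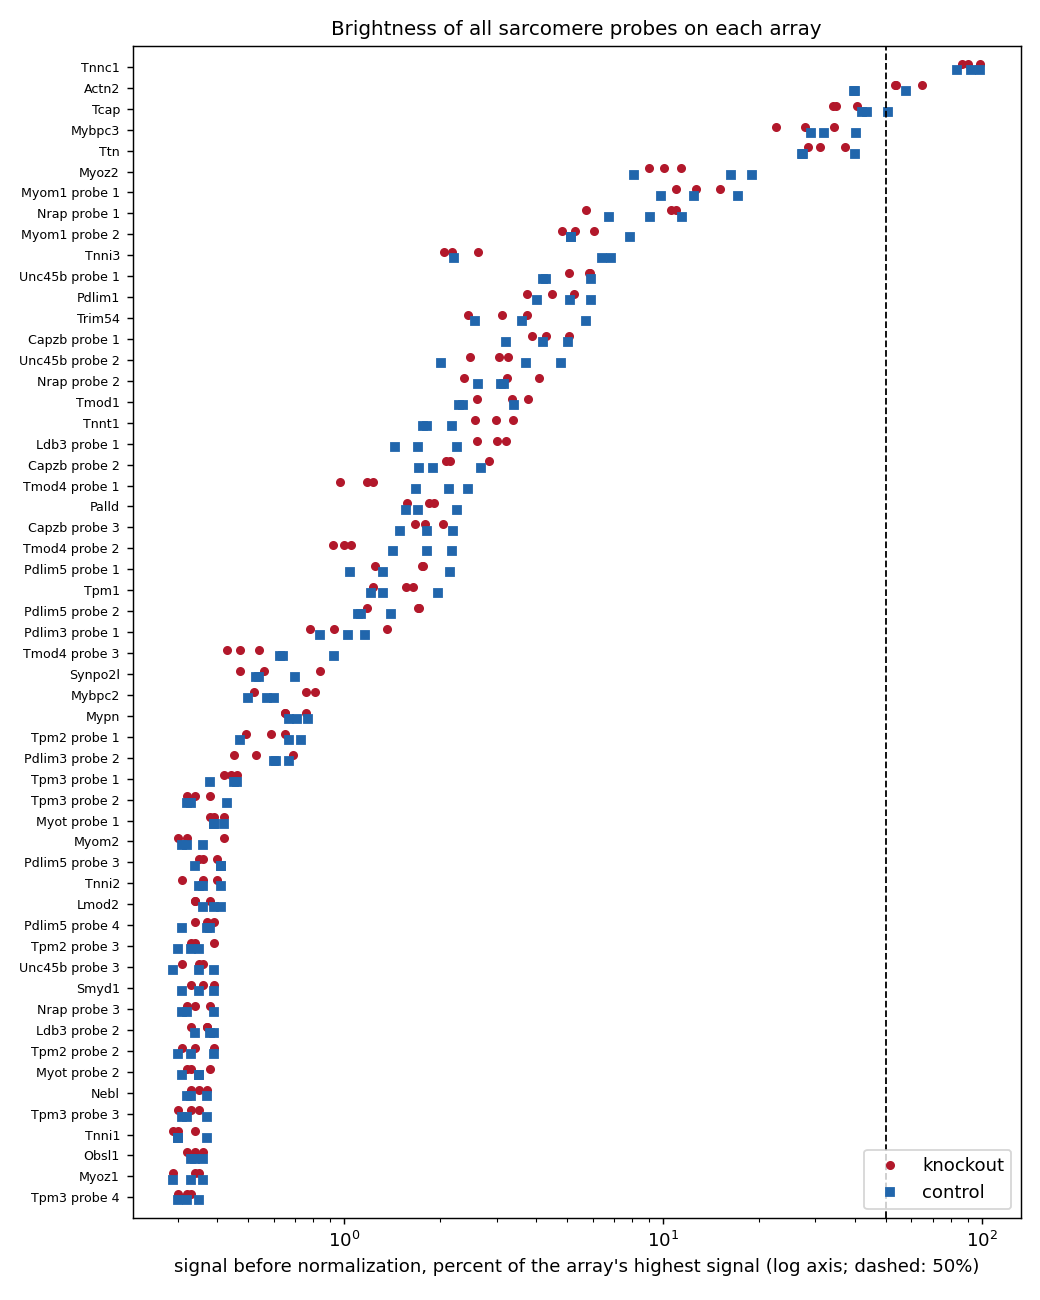
Signal before normalization of all 55 sarcomere probes, as a percent of the highest signal on the same array (log axis), with knockout arrays as red circles and control arrays as blue squares. The dashed line marks 50%, which Tnnc1 passes on all 6 arrays, Actn2 on 4 and Tcap on 1.

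Markers of other cell types and other sarcomere-associated genes were read in the same fit. Of 56 other sarcomere-associated genes, 28 were tested with 39 probes, of which 2 rose and none fell: Acta1, the skeletal alpha-actin, at 6.40-fold, and the intermediate filament gene Des at 1.52-fold. That is 5.13% of the 39 probes, and their median difference was 0.07. Among skeletal muscle markers, 7 of the 10 with probes, among them the fast myosin genes Myh1 and Myh4 and the fast troponin genes Tnnt3 and Tnnc2, were not detected on any array. The fast myosin light chain gene Myl1, another marker of skeletal muscle, fell and read 8.28, 8.48 and 8.40 in knockout hearts, against 10.10, 10.24 and 9.57 in control hearts. The signal of the 2 tested skeletal markers, Myl1 and Ckm, summed to 4660 to 7030 in knockout hearts and 4724 to 5870 in control hearts (linear normalised signal). Most of this sum was Ckm, which was not called (log2 difference 0.32). The sum therefore does not show the fall of Myl1 (log2 difference -1.58). Cardiomyocyte markers that are not among the 41 genes had 14 tested probes with none called. Their sums were 174391 to 183977 in knockout hearts, against 174235 to 189605 in control hearts. The brightest of these probes, of Atp2a2, averaged 14.58 in knockout and 14.56 in control hearts. That is the level of the near-saturated Tnnc1 probe (14.60 and 14.59). Quantile normalization also gives all arrays the same set of values, so sums of the brightest probes can differ little. These sums therefore do not measure cardiomyocyte content. Of 12 tested smooth muscle and mural probes, 4 fell (33.3%, where 3.8% of all probes were called), all of them probes of Acta2. The list's sums, with Acta2 included, were 4372 to 6046 in knockout hearts, against 6363 to 7260 in control hearts. The other probes of the list were not called, with log2 differences from -0.34 for Smtn to 0.33 for Notch3. Those of Smtn and Tagln lay below zero, and those of Myh11, Rgs5, Pdgfrb and Notch3 above it. No probe of the fibroblast, endothelial, macrophage, erythroid or atrial lists was called. The part of these cell types in the Tmod4, Ldb3 and Tnnt1 results was not tested.

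The sequences upstream of the 3 called genes are shown as a description. They end before the start and hold nothing downstream of it, and a link between NELF and these genes was not tested. Each is the 250 bases before the RefSeq start on the gene's own strand (build GRCm38.p6, 5′ to 3′), for Ldb3 before the more upstream of 2 listed starts. Capitals mark matches on either strand to TATAAA, to the E-box CANNTG, to the CArG box bound by serum response factor, and to the MEF2 site. Tmod4 lies at chr3:95124264-95124513 on the plus strand, Ldb3 at chr14:34588682-34588931 and Tnnt1 at chr7:4515976-4516225, both on the minus strand.
Tmod4: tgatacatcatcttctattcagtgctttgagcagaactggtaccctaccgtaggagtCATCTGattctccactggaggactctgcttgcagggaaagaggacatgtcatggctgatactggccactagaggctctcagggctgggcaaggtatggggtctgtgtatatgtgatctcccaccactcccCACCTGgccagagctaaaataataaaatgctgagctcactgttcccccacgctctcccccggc
Ldb3: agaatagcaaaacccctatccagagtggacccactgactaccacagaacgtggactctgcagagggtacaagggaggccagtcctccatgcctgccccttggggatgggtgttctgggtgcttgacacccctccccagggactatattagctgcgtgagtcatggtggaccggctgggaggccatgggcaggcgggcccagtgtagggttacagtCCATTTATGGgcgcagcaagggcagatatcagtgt
Tnnt1: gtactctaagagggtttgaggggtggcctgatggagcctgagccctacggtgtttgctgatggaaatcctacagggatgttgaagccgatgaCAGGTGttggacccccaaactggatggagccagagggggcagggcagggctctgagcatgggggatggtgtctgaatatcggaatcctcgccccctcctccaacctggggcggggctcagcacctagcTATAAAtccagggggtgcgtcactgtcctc
Tmod4, the gene that fell, holds 2 E-boxes, which 66.2% of all windows of this length hold at least 1 of. Ldb3 holds a CArG box 35 to 26 bases before its start. This motif was found in 1.5% of all windows and in 4 of the 46 windows of the listed sarcomere genes. Tnnt1 holds TATAAA 30 to 25 bases before its start, found in 12.4% of windows, and an E-box. No MEF2 site was matched in the 3 windows (2.9% of all windows hold one). Of the 46 windows of the listed sarcomere genes, 34 hold an E-box, 5 hold TATAAA and 6 hold a MEF2 site. The GC content was 52.4% for Tmod4, 58.4% for Ldb3 and 59.2% for Tnnt1, where the median of all windows was 52.4%. The matches are letters in these windows, and binding was not measured here.

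**Figure D5:**
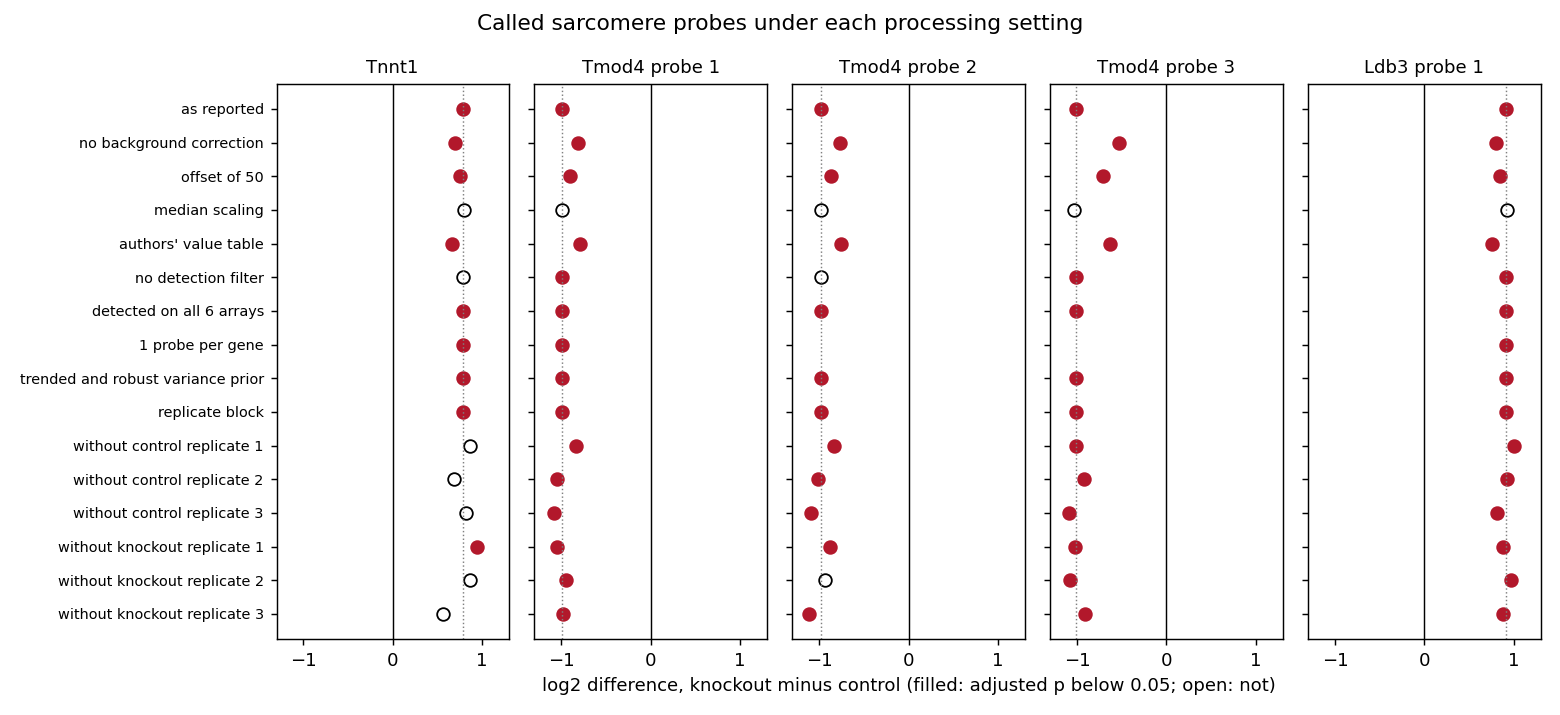
Log2 difference of the 5 called probes under each processing setting, knockout minus control. Filled points pass an adjusted p of 0.05 and open points do not. The differences keep their sign in every row, the calls are lost with median scaling, and Tnnt1 is open in 7 rows.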

How the data were processed

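Heart RNA of 3 knockout and 3 control mice was hybridised to Illumina bead arrays. The deposited intensity values that were not normalized, with a detection p-value per probe and array made by the authors, came from GenomeStudio per the submitters' processing notes. The authors' second table holds intensity values with 1 shared distribution, and the sources used here do not say how it was scaled. Each array was assigned to the sample record whose column in that table has the same rank order (Spearman rho 1 over 25696 probes, at most 0.854 for other pairs). The neqc function (limma 3.58.1, R 4.3.3, offset 16) corrected the background, quantile-normalized the arrays and took log2. Probes with detection p below 0.05 on at least 3 arrays were tested with lmFit and eBayes, 2-sided, without a covariate. Figures used Python 3.11.15 and matplotlib 3.10.9.

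The mean signal per array ran from 169.8 to 310.3, and 38.8% to 43.8% of probes were detected. Precision is limited by having 3 arrays a group, for which the smallest p of an exact permutation test is 0.1. Nothing states separate cultures or litters, so p-values measure the spread between these mice. Every listed gene was named. Values on every array were given for called probes, for uncalled probes apart between groups with an absolute log2 difference of at least 0.5, for the other probes of called genes and for the brightest probe of each compartment. Values on every array of Tmod1, Lmod2, Tnni3, Mybpc3, Tcap and Pdlim5 probe 2, and the knockout values of Pdlim3, were added after they were seen. The members and lists were chosen with earlier results of these data known. Alternatives covered background correction, offset, normalization, detection filter, probes per gene, the authors' value table, variance prior, replicate block, group names and each array left out.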

Additional observations from a re-analysis of the deposited data

How the results depend on the processing

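The 5 sarcomere calls kept their sign in all settings that kept the group names. The count of called sarcomere probes was 5 in the settings reported, 7 with no background correction, with an offset of 50, from the deposited values and with a trended and robust variance prior, 0 with median scaling (limma, 6 at an unadjusted p under 0.05), 3 with no detection filter and 3 with 1 probe per gene, and ran from 3 to 5 when each array was left out. The 3 with 1 probe per gene follow from counting Tmod4 by 1 probe. The count over all probes was 395 in the settings reported, 696 with no background correction, 691 with an offset of 50, 69 with median scaling (limma, 581 at an unadjusted p under 0.05), 732 from the values the authors deposited, 163 with no detection filter and 773 with a trended and robust variance prior, and ran from 131 (without control 3) to 491 (without control 1) when each array was left out (159 without control 2, 154 without knockout 2 and 221 without knockout 3). The causes were not tested. The median difference of the sarcomere probes ran from 0.01 to 0.06 when each array was left out. With median scaling the calls were lost at adjusted p of 0.112, 0.119 and 0.0832 for Tmod4 probes 1, 2 and 3, 0.18 for Ldb3 and 0.394 for Tnnt1, with differences of -0.99, -0.98, -1.04, 0.93 and 0.80. Tmod4 probe 2 was also lost with no detection filter (0.0729) and without knockout replicate 2 (0.0505). With the group names of the table headers, the differences were 0.99, 0.98 and 1.01 for Tmod4, -0.91 for Ldb3, -0.79 for Tnnt1 and -0.62 for Mybpc2. Equal replicate numbers did not pair the samples: deviations from the group means of same-numbered arrays correlated at -0.06, 0 and -0.06. With the replicate block, 299 probes were called in all, with the same 5 sarcomere probes. Signals close to background limit Lmod2, Tnni2, Myot and Pdlim5 probes 3 and 4.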
